A study of Mus musculus with 26 samples.

Results

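The 10 genes R3hdml, Il17b, Smim6, Smim22, Grhl3, Baiap2l1, Cdk5r1, Dusp9, Cacna1h and Erbb3 share a peak on day 3 of skeletal muscle regeneration, and several of them are better known from nerve or epithelium than from muscle. They were picked by symbol, because of that peak, from the 53465 genes of a regeneration table and the 55487 genes of a C2C12 table, and all 10 are listed in both. Their muscle values are therefore a description with no test, and the members are tested below only in the C2C12 table, which had no part in the choice. Lists of related genes and of fusion genes, which are not members, were also tested in muscle, day 3 against day 0. Those lists were chosen with results of these data known. The regeneration table holds tibialis anterior (TA) muscle of C57BL/6 J mice, given in the methods as 6-week-old males, with 2 libraries for each of days 0, 1, 3, 5 and 10 after an injection with cardiotoxin (CTX), which kills muscle fibres and starts their regrowth. The methods name saline as the control, and whether the day 0 muscle was untouched or had been given saline is not settled. The C2C12 table holds C2C12 cells, a mouse myoblast line that fuses into myotubes when serum is reduced, as CTRL cells, called wild type in the series text, and as Cas9M3 cells. Cas9M3 cells are stable lines selected with puromycin that carry dCas9-KRAB, a repressor guided to the promoter of Mettl3, the enzyme that writes m6A on mRNA. The series text calls them a knockout, while the construct is one for knockdown. Both lines were sequenced in growth medium (GM, labelled D0) and after 3 days of differentiation (DM3), with 2 libraries per group. The labels do not say whether libraries came from separate animals or cultures, so each p measures only the spread between these libraries.

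After CTX, dying fibres are cleared by immune cells while satellite cells, the stem cells of muscle, divide, become myoblasts and fuse into new fibres. Fusion needs the membrane proteins Mymk and Mymx, and young fibres briefly use embryonic genes such as Myh3 and Chrng before mature genes replace them. Among the 10 genes, Erbb3 and Il17b act in signalling between cells, and Cdk5r1 and Dusp9 regulate kinases inside them. Cacna1h is the pore of a calcium channel, while Baiap2l1, Smim22 and Smim6 act at membranes. Grhl3 is a transcription factor, and R3hdml belongs to a family of secreted proteins.

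RefSeq promoter windows on GRCm38.p6, running from 250 bases before an annotated start to 50 after it, were matched for R3hdml, Smim6, Smim22, Grhl3 and Baiap2l1, with 2 starts for Smim22. The others are Il17b, Cdk5r1, Dusp9, Cacna1h and Erbb3. The 250 bases before the start are printed for R3hdml and Baiap2l1, the members that were tested in C2C12 and have a window, and for Smim22, the one member whose window held a MEF2 match. R3hdml lies at chr2:163492068-163492317 on the plus strand, Baiap2l1 at chr5:144358113-144358362 on the minus strand and Smim22 at chr16:5007038-5007287 on the plus strand. Each reads 5′ to 3′ on the strand of the gene, and capitals mark the E-box letters CAGCTG or CAGGTG (on either strand), of the kind bound by myogenic factors, and matches to the MEF2 consensus.
R3hdml: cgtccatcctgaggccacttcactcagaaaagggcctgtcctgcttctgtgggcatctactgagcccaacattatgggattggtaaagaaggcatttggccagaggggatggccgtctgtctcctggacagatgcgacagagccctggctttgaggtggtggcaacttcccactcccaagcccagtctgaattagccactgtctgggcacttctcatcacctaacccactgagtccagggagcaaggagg
Baiap2l1: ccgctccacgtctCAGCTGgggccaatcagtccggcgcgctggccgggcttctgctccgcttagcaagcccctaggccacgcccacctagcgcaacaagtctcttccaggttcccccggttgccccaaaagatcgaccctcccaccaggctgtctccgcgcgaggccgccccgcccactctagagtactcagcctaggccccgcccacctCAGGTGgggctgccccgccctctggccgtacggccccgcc
Smim22: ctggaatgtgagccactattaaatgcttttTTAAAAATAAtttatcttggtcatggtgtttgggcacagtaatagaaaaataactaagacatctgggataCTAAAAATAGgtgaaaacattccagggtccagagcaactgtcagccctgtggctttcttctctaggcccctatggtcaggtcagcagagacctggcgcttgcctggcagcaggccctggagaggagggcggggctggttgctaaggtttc

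Besides the E-boxes and the MEF2 consensus, both strands of each window were searched for CATTCC, the core bound by TEAD factors, and for TGACTCA, bound by AP-1. The R3hdml and Smim6 windows held none of these motifs. Baiap2l1 held CAGCTG at -237 and CAGGTG at -40 and 15, counted in bases from the annotated start to the first letter. Smim22 held the MEF2 consensus at -220 and -150, CATTCC at -248 and -133, and a CAGGTG that begins at -1 and crosses the start, so it is not in capitals. Grhl3 held CAGGTG at -19 and 9. Of the 5 members whose windows were searched, 1 held CAGCTG, 3 held CAGGTG, 1 held CATTCC, 0 held TGACTCA and 1 held the MEF2 consensus. Over all 32851 windows the shares were 16.3%, 20.2%, 14.7%, 5.20% and 3.19%. A match is a run of letters and not a bound site, and its absence concerns only this window.

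Both tables hold FPKM, a level scaled to gene length and to a factor for each library. Each table was scaled on its own, so levels are set side by side only within a table. From the steps in the low values, the libraries held 14170000 to 18780000 reads on genes in muscle and 14260000 to 29550000 in C2C12. A single read on 1 kb of exons came to between 0.0495 and 0.0817 FPKM in muscle and between 0.0314 and 0.103 FPKM in C2C12. The factor did not follow the reads on genes alone. That single read came to 0.0804 FPKM in day 0 replicate 1, with 16750000 reads, and to 0.0507 FPKM in day 3 replicate 1, with 14310000. Levels on different days therefore also depend on this factor. Loci of ribosomal RNA held 0.412% to 0.536% of reads in the replicate 1 libraries of C2C12 and 8.22% to 28.7% in the replicate 2 libraries, with the highest share in CTRL GM replicate 2. Xist, an RNA of female cells, was between 5.77 and 10.0 FPKM in day 3 replicate 2 and in the 4 libraries of days 0 and 10, and at no more than 0.152 FPKM in the other 5 muscle libraries, which goes against the description of the mice as male. Day 3 thus has 1 library of each kind. Days 0 and 10 have only libraries with high Xist, and days 1 and 5 only libraries with low Xist. A difference between day 0 and day 1 or day 5 therefore cannot be told apart from the Xist difference.

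All 10 genes had both day 3 libraries above the other 8 muscle libraries, as the choice required, while 18.8% of the 16753 genes past the filter on low values had that order. The filter asked for at least 0.5 FPKM in at least 2 libraries, and in muscle all 10 met it with the day 3 libraries alone. Il17b, Smim22, Grhl3, Dusp9 and Cacna1h would not have met it without them. The size of the peak differed widely between members. The lower day 3 library exceeded the highest library of any other day 24.7-fold for Il17b, the widest gap, and 1.77-fold for Smim22, the narrowest. These ratios rest on 103 against 3 reads (exact 95% interval for counting error 7.72 to 114) and on 15 against 7 reads (0.680 to 5.13). In 8 of the 10 genes day 3 replicate 2, the library with Xist, was the higher of the pair. The share of all genes with that order was not counted, so it cannot be read as a trait of the members. The part of the Xist difference in the values was not tested.

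**Figure D1:**
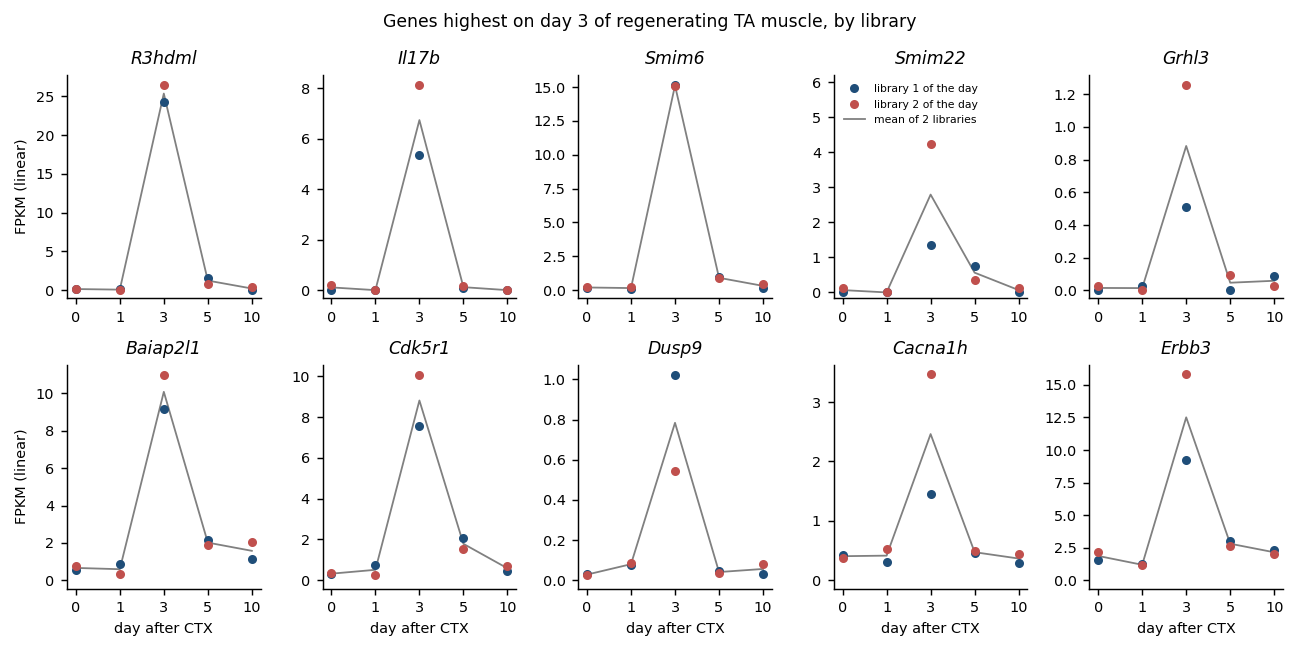
FPKM on a linear axis against the day after CTX (days evenly spaced), with 1 panel per gene, each of the 2 libraries of a day as a point and their mean as a line. Both day 3 libraries lie above all other libraries in every panel, close together for Smim6 at 15.1 and 15.2 FPKM and far apart for Smim22 at 1.35 and 4.23 FPKM.

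Erbb3 (ENSMUSG00000018166, chr10:128567523-128589652, minus strand) encodes a receptor for neuregulins that has little kinase activity of its own and signals by pairing with Erbb2, and it is best known from Schwann cells. Its level was 1.56 and 2.18 FPKM on day 0, 1.23 and 1.15 on day 1, 9.20 and 15.8 on day 3, 3.02 and 2.60 on day 5, then 2.31 and 1.99 on day 10. It was the member with the highest level outside day 3, and on day 5 both libraries still lay above both day 0 libraries. The day 5 mean was 22.4% of the day 3 mean, the largest such share among the 10 genes. The 6 Schwann cell markers summed to 6.39 to 14.3 FPKM on day 3, against 13.2 to 19.3 FPKM on day 0 and 6.63 to 7.46 FPKM on day 5. The day 3 range overlapped both, and the part of Schwann cells in the values of Erbb3 was not tested.

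Erbb2, the partner of Erbb3, went from 0.755 and 1.03 FPKM on day 0 to 4.98 and 7.26 FPKM on day 3, a log2 fold change of 2.63 ± 0.274 (SE, n = 2 against 2, adjusted p = 0.000448). Egfr also rose on day 3, by 1.58 on the log2 scale. These were 2 of the 3 tested genes of a list of 7 ErbB receptors and neuregulins, and 24.5% of all 16753 genes were called higher in that comparison.

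Il17b (ENSMUSG00000024578, chr18:61684887-61692538, plus strand) encodes a cytokine of the IL-17 family that binds Il17rb. It was at 0 and 0.216 FPKM on day 0, 0 and 0 on day 1, 5.34 and 8.14 on day 3, 0.0887 and 0.147 on day 5, then 0 and 0 on day 10. Only day 3 held more than 3 reads in a library, with 103 and 160 reads. The lower day 3 library was at least 22.8-fold above day 1 and at least 21.2-fold above day 10, taking 3 reads per library as the limit that a count of 0 allows. The antisense gene Gm38165 overlaps the exons of Il17b and stood at 3.02 and 4.98 FPKM on day 3, and since the counting is not stated to use strand the reads of the pair cannot be told apart.

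The receptor Il17rb, in contrast to the ligand, stayed at no more than 0.130 FPKM in every muscle library and did not pass the filter. Of the list of 10 IL-17 ligands and receptors, 4 were tested, and Il17ra (log2 fold change 2.78, adjusted p = 0.000331) and Il17rc (1.84, adjusted p = 0.00135) rose from day 0 to day 3.

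Cdk5r1 (ENSMUSG00000048895, chr11:80477023-80481184, plus strand) encodes p35, the activator that switches on the kinase Cdk5, studied mostly in neurons. Its level was 0.309 and 0.342 FPKM on day 0, 0.755 and 0.274 on day 1, 7.55 and 10.1 on day 3, 2.06 and 1.51 on day 5, then 0.471 and 0.707 on day 10. Day 5 was intermediate, at 20.3% of the day 3 mean and above both day 0 libraries. Cdk5 itself stood between 6.46 and 8.12 FPKM in all 10 libraries, with a log2 fold change of 0.082 ± 0.138 (SE, adjusted p = 0.649) from day 0 to day 3. None of the 4 tested genes of the list of Cdk5 and its activators was called in muscle.

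Dusp9 (ENSMUSG00000031383, chrX:73639419-73643514, plus strand) encodes a phosphatase that removes phosphate from MAP kinases, mainly ERK. It was at 0.0295 and 0.0275 FPKM on day 0, 0.0770 and 0.0839 on day 1, 1.02 and 0.545 on day 3, 0.0451 and 0.0373 on day 5, then 0.0300 and 0.0831 on day 10. Outside day 3 each library held 1 to 3 reads, and on day 3 they held 55 and 30, so differences among the other days are below what this depth resolves. Dusp9 was 1 of the 2 members, with Smim6, whose replicate 1 was the higher on day 3. Of the 9 other dual specificity phosphatases tested, Dusp2 was higher on day 3 than on day 0 (log2 fold change 2.95), Dusp8, Dusp10 and Dusp16 were lower (-1.95, -1.36 and -0.55), and 5 were not called, where 24.3% of all genes were called lower.

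Cacna1h (ENSMUSG00000024112, chr17:25374285-25433783, minus strand) encodes the pore of Cav3.2, a T-type calcium channel that opens at low voltage. It stood at 0.428 and 0.384 FPKM on day 0, 0.308 and 0.522 on day 1, 1.45 and 3.47 on day 3, 0.453 and 0.493 on day 5, then 0.284 and 0.448 on day 10. The 8 libraries of the other days all lay between 0.284 and 0.522 FPKM, and the 2 day 3 libraries differed from each other 2.39-fold. Its exons overlap those of Tpsg1 on the other strand, which was not examined, so reads from that gene cannot be told apart from its own. Cacna1g, which encodes another T-type pore, was also higher on day 3 (log2 fold change 1.61, adjusted p = 0.0115), whereas Cacna1s, the voltage sensor of mature fibres, fell by 1.52 on the log2 scale (adjusted p = 0.00165). They were 2 of the 3 tested genes of a list of 9 calcium channel pore subunits.

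Baiap2l1 (ENSMUSG00000038859, chr5:144264526-144358112, minus strand) encodes IRTKS, an I-BAR protein that bends membranes and binds actin regulators. Its level was 0.548 and 0.779 FPKM on day 0, 0.871 and 0.317 on day 1, 9.17 and 11.0 on day 3, 2.15 and 1.88 on day 5, then 1.12 and 2.04 on day 10. Both libraries of day 5 and both of day 10 lay above both day 0 libraries, and the day 10 mean was 15.6% of the day 3 mean where the day 0 mean was 6.58%. Its exons overlap those of Bri3 on the other strand, which stood at 15.0 and 15.3 FPKM on day 3 and at 12.3 to 24.3 FPKM on the other days, and so did not peak with it. They also overlap exons of Gm15708 and Dmrt1i on that strand, which were not examined, so reads from those genes cannot be told apart from its own. Of the other I-BAR genes, 3 were tested and Baiap2 was higher on day 3 (log2 fold change 2.05, adjusted p = 0.00801).

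Smim6 (ENSMUSG00000075420, chr11:115912017-115913920, plus strand) encodes endoregulin, a small membrane protein that inhibits the calcium pump SERCA. It was at 0.164 and 0.230 FPKM on day 0, 0.0714 and 0.233 on day 1, 15.2 and 15.1 on day 3, 0.941 and 0.881 on day 5, then 0.167 and 0.463 on day 10. Its day 3 libraries agreed most closely of all members, and the day 5 mean was 6.03% of the day 3 mean. The muscle regulators of the same pump followed other courses. Sln stood at 2.01 and 19.5 FPKM on day 0 and 26.0 and 20.9 FPKM on day 3, with no call, and Pln fell by 1.57 on the log2 scale.

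Smim22 (ENSMUSG00000096215, chr16:5007288-5008309, plus strand) encodes another small membrane protein, described in epithelial tumour cells. It was at 0 and 0.133 FPKM on day 0, 0 and 0 on day 1, 1.35 and 4.23 on day 3, 0.766 and 0.362 on day 5, then 0 and 0.134 on day 10. These values rest on 15 and 48 reads on day 3, 7 and 4 reads on day 5 and at most 1 read in every other library. Grhl3 (ENSMUSG00000037188, chr4:135541888-135573630, minus strand) encodes a transcription factor of skin barrier formation and neural tube closure. It was at 0 and 0.0269 FPKM on day 0, 0.0250 and 0 on day 1, 0.509 and 1.26 on day 3, 0 and 0.0909 on day 5, then 0.0878 and 0.0270 on day 10. Both genes are known from epithelium, and both had replicate 2 well above replicate 1 on day 3. The 6 epithelial markers summed to 0.164 to 7.32 FPKM on day 0, 2.20 to 20.8 on day 1, 4.04 to 14.9 on day 3, 5.51 to 13.6 on day 5 and 10.1 to 17.2 on day 10. Day 3 thus overlapped every other day, with Epcam at 0 in both its libraries and a sum that was higher in replicate 1, and the part of epithelial cells in the values of Smim22 and Grhl3 was not tested. The related factors Grhl1 and Grhl2 stood at no more than 0.429 and 0.0474 FPKM in any muscle library.

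R3hdml (ENSMUSG00000078949, chr2:163492318-163502612, plus strand) encodes a predicted secreted protein of the CAP family. Its level was 0.147 and 0.137 FPKM on day 0, 0.128 and 0 on day 1, 24.2 and 26.5 on day 3, 1.63 and 0.834 on day 5, then 0.0746 and 0.345 on day 10. It had the highest day 3 mean of the 10 genes, 25.3 FPKM, and rested on 522 and 585 reads there against 0 to 5 on days 0, 1 and 10. On day 5 it was at 4.85% of the day 3 mean, with 29 and 18 reads, and still above day 0. In the list of 8 other CAP genes, 4 were tested, and Glipr1 (log2 fold change 1.41) and Glipr2 (2.64) rose from day 0 to day 3.

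The 10 genes thus fell into groups by how much remained on day 5. Il17b, R3hdml, Grhl3, Dusp9 and Smim6 had day 5 means of 1.74% to 6.03% of the day 3 mean, and Cacna1h, Baiap2l1, Smim22, Cdk5r1 and Erbb3 had 19.2% to 22.4%. In the second group the day 0 means were already 16.5% of day 3 for Cacna1h and 14.9% for Erbb3, but 2.39% to 6.58% for the other 3. In 8 of the 10 genes both day 5 libraries lay above both day 0 libraries, where 34.6% of all genes past the filter had that order, and the exceptions were Il17b and Grhl3. The 8 include Dusp9, whose 2 reads in each day 5 library and 1 in each day 0 library do not resolve a difference. Xist was high in both day 0 libraries and low in both day 5 libraries, so the order of day 5 and day 0 cannot be told apart from the Xist difference. Of the shares on days 0, 1 and 10, those of Il17b, Dusp9, Grhl3 and Smim22 rest on 0 to 3 reads per library, and the day 5 shares of Il17b, Dusp9 and Grhl3 on 0 to 5.

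**Figure D2:**
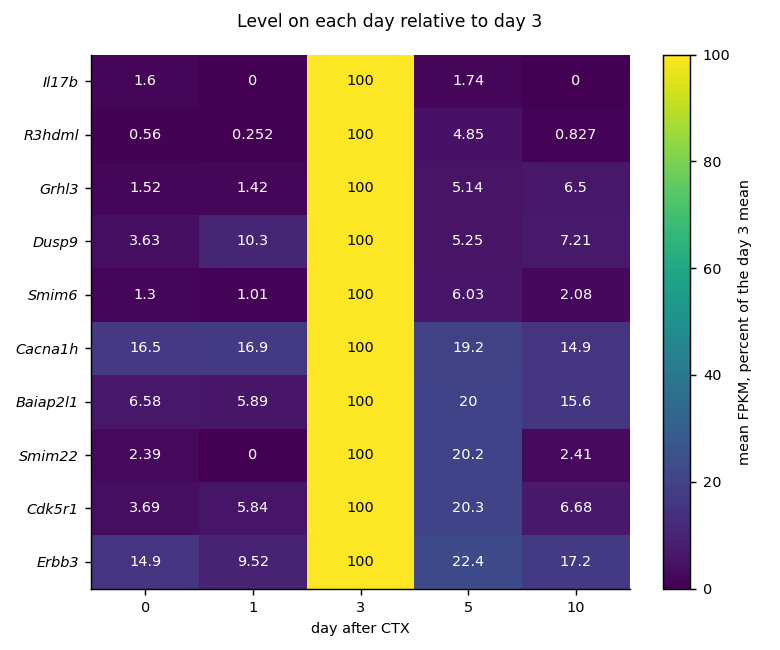
Mean FPKM of the 2 libraries of a day as a percent of the day 3 mean, by gene and day after CTX, with genes ordered by the day 5 value and brighter colours for higher shares. The day 5 column runs from 1.74% for Il17b to 22.4% for Erbb3.

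Over the 10 libraries the 45 pairs of members had Pearson correlations of log2(FPKM + 0.1) from 0.731 to 0.980, with a median of 0.916, which the choice by a shared peak makes high and which is given only as a description. Among 14055 genes with at least 1 FPKM on some day, the 3 genes most like Baiap2l1 over the 10 libraries were Mymx (r = 0.986), Mymk (0.980) and Tnnt2 (0.979), which are genes of fusion and young fibres. The genes most like Cdk5r1 were Cd300c (0.990), Palm3 (0.986) and Tcf7 (0.984). For Smim6 they were Pla2g15 (0.991), Acta2 and Cdh2 (both 0.989), and for R3hdml they were Sytl2, Cemip and Cd300c (all 0.986). Erbb3 was most like Tgfb3 (0.984), Fggy and Pkhd1 (both 0.983). Il17b was most like AC125350.3 (0.983), Arhgap39 (0.977) and 5830418P13Rik (0.975). Smim22 was most like Gm37565, Fam171a2 and Gbp8 (all 0.978), Grhl3 most like Tmem86b (0.981), Aph1c (0.974) and Dhdds (0.972), Cacna1h most like Ablim3 (0.975), Slc15a4 and 4933428G20Rik (both 0.974), and Dusp9 most like Gm21954, Mir6931 (both 0.982) and Mir6960 (0.981). All points share libraries and days, and any gene with a day 3 peak scores high on this measure.

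The makeup of the muscle changed on day 3 as well. The 6 macrophage markers summed to 1568 to 1607 FPKM on day 3 against 46.6 to 524 FPKM on the other days, and the 4 satellite cell and myoblast markers to 73.8 to 86.2 FPKM against 13.2 to 52.1 FPKM. Fibroblast markers reached 589.9 to 637 FPKM on day 3 and 614 to 698 FPKM on day 5, and mature fibre markers were lowest on day 3, at 11400 to 13430 FPKM against 34830 to 55200 FPKM on the other days. All 12 genes of the list of myoblast fusion and early myotube genes, which was chosen with results of these data known, were higher on day 3 than on day 0, with a median log2 fold change of 4.85 against 0.0075 for all genes. Of the 35 tested genes of the 9 lists of relatives of the members, 9 were higher and 5 lower on day 3, where 24.5% and 24.3% of all genes were, so the relatives were not called more often than genes at large. With the 12 fusion genes this made 26 calls, or 15 when a log2 change of at least 2 was also asked for, a rule that 9.46% of all genes met upwards and 3.83% downwards. Because the fusion list was chosen with results known, these pooled counts cannot be compared with the shares of all genes. In whole muscle, more cells of a type and more RNA per cell cannot be told apart, and the part of each cell type in the peaks was not tested.

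C2C12 cells served to ask which members a muscle line expresses without the other cells of muscle, and whether they follow its differentiation and the loss of Mettl3. The 6 Schwann cell markers summed to 0.172 to 0.618 FPKM over the 8 libraries, with Sox10, the defining factor of that lineage, at 0 in each. The 6 macrophage markers summed to 1.89 to 10.1 FPKM, of which Cd68 and Lyz2 made up nearly all while C1qa, C1qb and Adgre1 were at 0 in each, and the 6 epithelial markers to 1.42 to 63.9 FPKM, nearly all from Krt14, which was highest in CTRL GM replicate 2, with Krt18 at 0 in each. Mettl3, the targeted gene, stood at 4.70 and 5.65 FPKM in CTRL GM, 4.68 and 5.15 in CTRL DM3, 0.331 and 0.118 in Cas9M3 GM, and 0.148 and 0.0805 in Cas9M3 DM3. All Cas9M3 libraries were below all CTRL libraries, as the labels say. The log2 fold change was -4.10 ± 0.402 (SE, n = 2 against 2, adjusted p = 0.189) in GM, where limma called none of the 13824 genes tested, and -4.56 ± 0.402 (adjusted p = 0.0187) on DM3.

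R3hdml rose on DM3 in CTRL cells and was lower in Cas9M3 than in CTRL cells on DM3. Its level was 0.0863 and 0.189 FPKM in CTRL GM, 3.50 and 3.95 in CTRL DM3, 0.174 and 0 in Cas9M3 GM, and 0.0984 and 0.187 in Cas9M3 DM3. These correspond to 3, 2, 105, 72, 6, 0, 3 and 3 reads, so that CTRL DM3 stood far above the other groups, which overlapped. The log2 fold change from GM to DM3 was 4.04 ± 0.614 (SE, n = 2 against 2, adjusted p = 0.0452) in CTRL cells and 0.53 ± 0.614 (adjusted p = 0.845, 95% interval -0.96 to 2.01) in Cas9M3 cells. Between Cas9M3 and CTRL cells on DM3 it was -4.00 ± 0.614 (adjusted p = 0.0372). R3hdml passed the filter only through the CTRL DM3 libraries, so some difference was bound to be found once it was tested, and its folds rest on few reads. Over both libraries CTRL DM3 held 177 reads, CTRL GM held 5 and Cas9M3 DM3 held 6, which gives ratios of the levels of 33.3 (exact 95% interval for counting error 14.0 to 104) and 28.4 (12.8 to 78.6).

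Cdk5r1 showed the same order at levels that passed the filter in every library. It stood at 2.09 and 1.82 FPKM in CTRL GM, 8.56 and 7.20 in CTRL DM3, 2.08 and 1.20 in Cas9M3 GM, and 1.83 and 2.14 in Cas9M3 DM3. The CTRL DM3 libraries were above the other 6, which lay between 1.20 and 2.14 FPKM. From GM to DM3 the log2 fold change was 1.96 ± 0.297 (adjusted p = 0.0452) in CTRL cells and 0.30 ± 0.297 (adjusted p = 0.799, 95% interval -0.41 to 1.02) in Cas9M3 cells, and for Cas9M3 against CTRL cells on DM3 it was -1.94 ± 0.297 (adjusted p = 0.0372). The kinase it activates, Cdk5, stood at 18.5 and 21.4 FPKM in CTRL DM3 and at 18.6 and 21.6 FPKM in Cas9M3 DM3, a log2 difference of 0.010 (adjusted p = 0.991).

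Baiap2l1 was the most abundant member in C2C12 and the one that was present before differentiation and still higher after it in the Cas9M3 libraries. Its level was 6.25 and 2.28 FPKM in CTRL GM, 23.7 and 21.5 in CTRL DM3, 5.25 and 4.58 in Cas9M3 GM, and 8.46 and 8.37 in Cas9M3 DM3. Within each line the DM3 libraries lay above the GM libraries, and the Cas9M3 DM3 libraries lay below the CTRL DM3 libraries. None of these differences passed the threshold. The log2 fold change from GM to DM3 was 2.55 ± 0.431 (adjusted p = 0.0572) in CTRL cells and 0.77 ± 0.431 (adjusted p = 0.573) in Cas9M3 cells, and it was -1.41 ± 0.431 (adjusted p = 0.160) for Cas9M3 against CTRL on DM3. Across settings that left out no single library, the adjusted p of the rise in CTRL cells ran from 0.0351 to 0.283. The lowest came with the replicate number as a block and the highest in a fit of only the CTRL libraries. For the DM3 difference the adjusted p ran from 0.00295, in a fit of only the DM3 libraries, to 0.206, with no filter. The widest gap within a group was in CTRL GM. Without CTRL GM replicate 1 the change in CTRL cells was 3.26, and without CTRL GM replicate 2 it was 1.84.

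**Figure D3:**
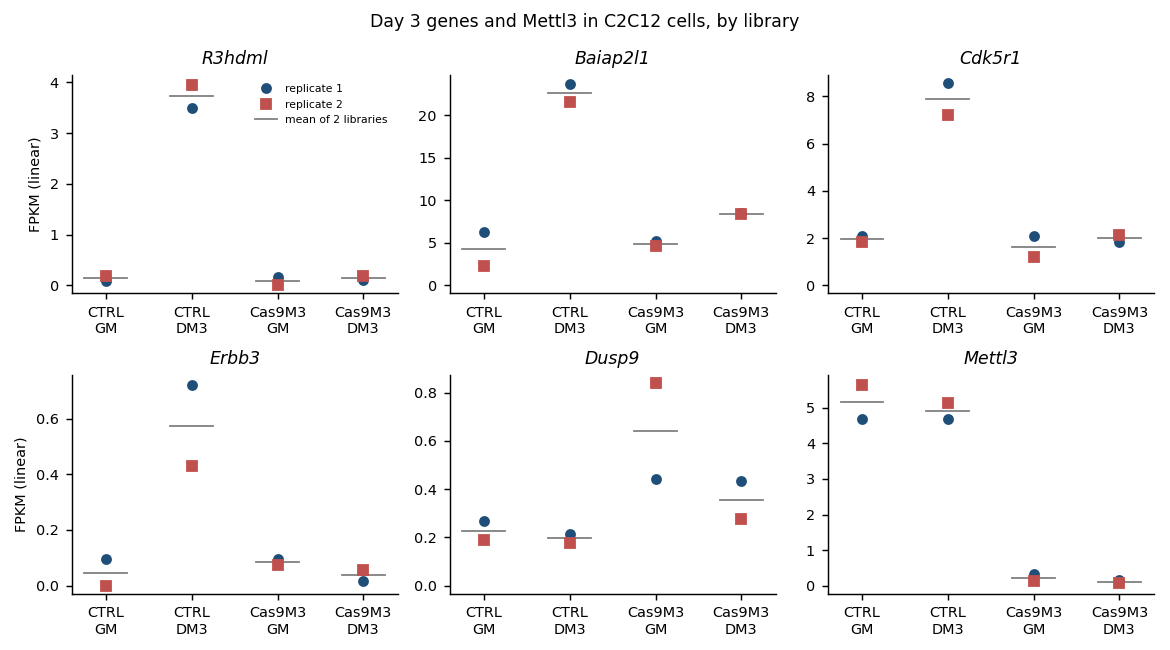
FPKM on a linear axis in the 4 C2C12 groups, with replicate 1 as circles, replicate 2 as squares and the mean of the 2 libraries as a bar. R3hdml, Baiap2l1, Cdk5r1 and Erbb3 are highest in both CTRL DM3 libraries, and Mettl3 is at most 0.331 FPKM in Cas9M3 cells. Dusp9 is higher in Cas9M3 than in CTRL libraries, the nearest of them at 0.275 and 0.266 FPKM.

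In all, 3 members were tested in C2C12. R3hdml is left out of the counts for the 2 comparisons with CTRL DM3, because its passing the filter fixed its order. Of the other 2 members, Cdk5r1 was called higher on DM3 than in GM in CTRL cells, where 0.767% of 13824 genes were called higher, and lower in Cas9M3 than in CTRL cells on DM3, where 0.687% were called lower, and Baiap2l1 was called in neither. For both, the CTRL DM3 libraries were above the CTRL GM libraries (24.8% of the genes tested), above the Cas9M3 DM3 libraries (34.2%) and above the other 6 libraries together (13.2%). When a log2 change of at least 2 was asked for as well, neither was called, where 0.535% of genes were called higher and 0.398% lower, and R3hdml was. In Cas9M3 cells 0 of 3 were called from GM to DM3, where 0.0145% of genes were called higher. In GM 0 of 3 were called between Cas9M3 and CTRL. Limma called 0 of 13824 genes in that comparison, with 1244 genes at an unadjusted p under 0.05, and with n = 2 against 2 an exact permutation test cannot go below p = 0.333.

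The test of the difference itself, the effect of Cas9M3 on DM3 minus its effect in GM, gave log2 values of -3.51 ± 0.868 for R3hdml (adjusted p = 0.367), -1.78 ± 0.610 for Baiap2l1 (adjusted p = 0.486) and -1.65 ± 0.420 for Cdk5r1 (adjusted p = 0.371). R3hdml passed the filter only through the CTRL DM3 libraries, which pushed its value toward the negative side. Its unadjusted p of 0.00603 is therefore no support. For Baiap2l1 and Cdk5r1 the values were negative as well, and unadjusted p was 0.0251 and 0.00688. After adjustment limma called 0 of 13824 genes, with 1198 at an unadjusted p under 0.05. A difference between the lines in how these genes respond to differentiation is therefore not shown after correction.

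The replicate 1 and replicate 2 libraries differ in their share of ribosomal RNA, so the changes were also read within each. From GM to DM3 in CTRL cells, R3hdml changed by 4.27 in replicate 1 and 3.81 in replicate 2 on the log2 scale, Cdk5r1 by 1.98 and 1.93, and Baiap2l1 by 1.91 and 3.19. On DM3, the log2 difference between the Cas9M3 and the CTRL library was -4.18 and -3.82 for R3hdml, -2.17 and -1.70 for Cdk5r1 and -1.48 and -1.35 for Baiap2l1. In GM the sign of the Cas9M3 difference turned between the replicates for R3hdml (0.56 and -1.53) and Baiap2l1 (-0.25 and 0.98). The 2 calls in CTRL cells and the 2 calls on DM3 are those of R3hdml, whose order the filter fixed, and of Cdk5r1. They rest on few libraries. When any 1 of CTRL DM3 replicate 1, CTRL DM3 replicate 2, Cas9M3 DM3 replicate 1 or Cas9M3 DM3 replicate 2 was left out, 0 members and 0 genes of the whole table were called in either comparison. Without CTRL GM replicate 2, 1 member was called in CTRL cells and 3 on DM3, and without CTRL GM replicate 1, 3 were called in both. In a fit of only the CTRL libraries 0 of 12861 genes were called from GM to DM3, against 158 of 13824 with all 8 libraries. In a fit of only the DM3 libraries 2828 of 13079 genes and all 3 members were called between Cas9M3 and CTRL cells, against 274 of 13824 genes and 2 members.

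**Figure D4:**
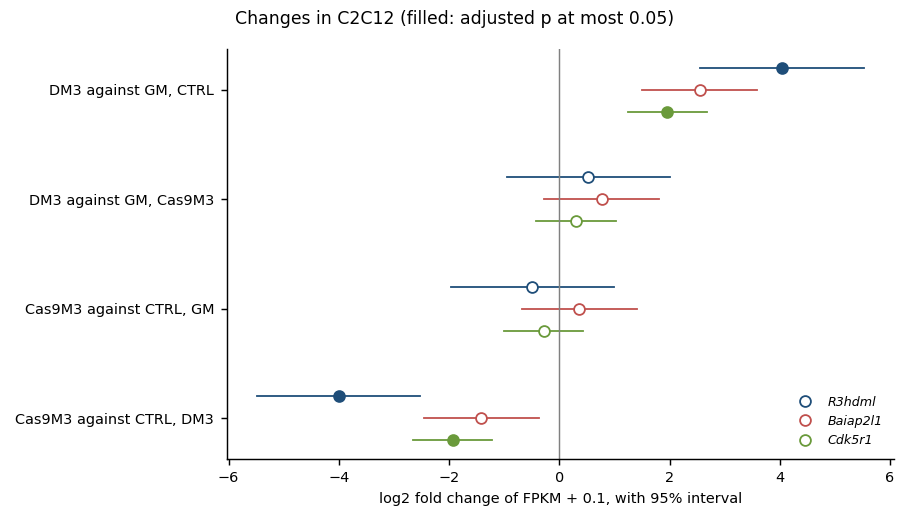
Log2 fold change of FPKM + 0.1 with its 95% interval for R3hdml, Baiap2l1 and Cdk5r1 in 4 comparisons of the C2C12 groups, filled where the adjusted p was at most 0.05. The filled points are R3hdml (4.04 and -4.00) and Cdk5r1 (1.96 and -1.94), in the comparison of DM3 with GM in CTRL cells and of Cas9M3 with CTRL cells on DM3. R3hdml passed the filter only through the CTRL DM3 libraries, which fixed the direction of its filled points.

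The other 7 members did not reach the filter in C2C12. Erbb3 was detected in 7 of 8 libraries, at 0.0941 and 0 FPKM in CTRL GM, 0.721 and 0.429 in CTRL DM3, 0.0948 and 0.0724 in Cas9M3 GM, and 0.0179 and 0.0566 in Cas9M3 DM3, from 18, 0, 119, 43, 18, 8, 3 and 5 reads. The CTRL DM3 libraries stood above the other 6, while in Cas9M3 cells DM3 lay below GM. In a fit with no filter, over 27456 genes, the log2 fold change of Erbb3 from GM to DM3 was 2.24 ± 0.444 (adjusted p = 0.122) in CTRL cells. In Cas9M3 cells it was -0.43 ± 0.444 (adjusted p = 0.839), so a fall there was not resolved. For Cas9M3 against CTRL cells on DM3 it was -2.28 ± 0.444 (adjusted p = 0.0748), and none of these passed the threshold. Erbb2 was at 7.81 to 13.4 FPKM in all 8 libraries and was not called in any comparison.

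Dusp9 was present at low levels and had another order from the rest. It was at 0.266 and 0.190 FPKM in CTRL GM, 0.214 and 0.177 in CTRL DM3, 0.442 and 0.840 in Cas9M3 GM, and 0.435 and 0.275 in Cas9M3 DM3, from 5 to 42 reads per library. Every Cas9M3 library was above every CTRL library, but the nearest, Cas9M3 DM3 replicate 2 and CTRL GM replicate 1, stood at 0.275 and 0.266 FPKM. The share of all genes with that order was not counted. GM and DM3 overlapped within the CTRL cells, while both Cas9M3 GM libraries lay above both Cas9M3 DM3 libraries, the nearest of them at 0.442 and 0.435 FPKM. With no filter the log2 difference between Cas9M3 and CTRL cells was 1.13 ± 0.479 in GM (adjusted p = 0.709) and 0.60 ± 0.479 on DM3 (adjusted p = 0.659), so neither was called.

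The remaining 5 members were at or near the limit of detection. Smim6 had 2 reads in each CTRL DM3 library, 1 read in Cas9M3 GM replicate 2 and 0 reads in the other 5 libraries, against 293 and 298 reads on day 3 in muscle. Grhl3 had 0 to 4 reads per library, at no more than 0.0451 FPKM, and Cacna1h had 0 reads in all 4 CTRL libraries and at most 5 reads, or 0.0162 FPKM, in a Cas9M3 library. Il17b and Smim22 had 0 reads in all 8 libraries. A count of 0 allows up to 0.0967 to 0.318 FPKM for Il17b and 0.168 to 0.552 FPKM for Smim22, depending on the library, when 3 reads are taken as the limit, which covers counting error only. Changes of these 5 genes were not detectable in C2C12 at this depth.

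Related genes gave the setting for these changes. Of 9 lists of relatives and partners of the members (ErbB, IL-17, Cdk5, dual specificity phosphatases, calcium channels, I-BAR, grainyhead, CAP and SERCA proteins), with 32 genes tested in C2C12, none had a gene called in any of the 5 comparisons, at an adjusted p of at most 0.05. In the list of fusion and early myotube genes, 11 of 12 were tested, and 4 were called higher on DM3 in CTRL cells. They were Actc1 (log2 fold change 7.91, adjusted p = 0.0228) and Myl4 (3.81, adjusted p = 0.0438), which encode sarcomere proteins, Chrna1 (3.91, adjusted p = 0.0394), a receptor subunit of the synapse, and Cdh15 (4.49, adjusted p = 0.0438), a cadherin of myoblasts. Against CTRL cells on DM3, 3 of 11 were called lower in Cas9M3 cells, Actc1 (-6.70), Tnnt2 (-4.34) and Myl4 (-4.13). The median over the 11 genes was 4.29 in the first comparison and -4.60 in the second, against -0.021 and -0.046 for all genes.

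The genes most like Baiap2l1 in muscle were, like it, highest in both CTRL DM3 libraries, but in Cas9M3 cells their GM and DM3 libraries overlapped. Mymx, the nearest, stood at 1.07 and 0.101 FPKM in CTRL GM, 7.56 and 11.6 in CTRL DM3, 1.08 and 0.106 in Cas9M3 GM, and 0.559 and 0.265 in Cas9M3 DM3. Mymk stood at 6.49 and 2.26 FPKM in CTRL GM, 199 and 180 in CTRL DM3, 11.8 and 0.613 in Cas9M3 GM, and 4.58 and 3.47 in Cas9M3 DM3. None of the 3 was called from GM to DM3 in CTRL cells, where the log2 fold change was 4.29 for Mymx (adjusted p = 0.131), 5.58 for Mymk (adjusted p = 0.101) and 4.43 for Tnnt2 (adjusted p = 0.0504). For the genes most like Smim6, Pla2g15 was at 17.8 to 40.8 FPKM in every C2C12 library while Smim6 itself was nearly absent. Acta2 and Cdh2 changed by 1.97 and 0.99 on the log2 scale from GM to DM3 in CTRL cells (limma adjusted p = 0.0682 and 0.170). Of those most like R3hdml or Cdk5r1, Cd300c was at 0 in each library and Palm3 missed the filter. Sytl2, Cemip and Tcf7 changed by -0.14, 2.25 and 0.50 (limma adjusted p = 0.925, 0.352 and 0.361), so none was called there. Mature fibre markers in C2C12 summed to 428 to 472 FPKM in CTRL DM3 and 9.79 to 12.8 FPKM in Cas9M3 DM3, satellite cell and myoblast markers to 69.0 to 72.9 and 30.9 to 38.2 FPKM, and cycling cell markers to 52.7 to 61.7 and 22.0 to 24.0 FPKM. The Cas9M3 DM3 libraries thus differed from the CTRL DM3 libraries in all 3 marker lists as well as in R3hdml, Cdk5r1, Baiap2l1 and Erbb3, and the part of the state of differentiation in the values of these 4 genes was not tested.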

How the data were processed

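RNA-seq of 10 muscle and 8 C2C12 libraries was used, and 8 overexpression libraries were not analysed here. Per the labels and the methods, the authors used HISAT2 on GRCm38 and featureCounts, and the deposited FPKM come from the DESeq2 function fpkm. Versions are not given in the sources used here.

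Samples were grouped by the condition in their titles. The deposited FPKM plus 0.1 were taken to log2 and fitted with limma 3.58.1 (lmFit, eBayes with trend) in R 4.3.3, all groups of a table together, for genes that reached 0.5 FPKM in 2 or more libraries, with Benjamini-Hochberg adjustment over 16753 and 13824 genes. A call needed an adjusted p no higher than 0.05. The 10 genes, the lists of related genes and the markers were chosen with earlier results of these data known, and for each member the 3 genes of highest correlation were named. Reads were read from the steps of low FPKM values with GENCODE M21 lengths (97.0% to 98.9% whole within 0.05) and entered no test. On simulated data with 200 genes changed by 2 on the log2 scale, the C2C12 fit for DM3 against GM in CTRL cells recovered 107 with 11 unchanged genes called over 13228 genes, and by 4 it recovered 174. The simulated noise was drawn independently for each library. It left out the deviations that same-numbered C2C12 libraries share, so these numbers may not hold for the real libraries.

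Same-numbered C2C12 libraries deviated together from their group means (6 correlations of 0.278 to 0.680), so the replicate number was tried as a block. Python 3.11.15 and matplotlib 3.10.9 drew the plots.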

Additional observations from a re-analysis of the deposited data

Results flagged for a closer look

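The order of the Erbb3 libraries differed between the C2C12 lines. Both CTRL DM3 libraries were above both CTRL GM libraries, while both Cas9M3 DM3 libraries were below both Cas9M3 GM libraries. The share of all genes with this pattern was not counted. The change in Cas9M3 cells alone, -0.43 ± 0.444 with no filter (adjusted p = 0.839, limma), was not resolved. In the same fit the log2 difference between the changes in the 2 lines was -2.67 ± 0.627 (SE, n = 2 per group), with an unadjusted p of 0.00504 and an adjusted p of 0.364 (limma). In the Cas9M3 libraries the values rest on 3 to 18 reads.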

How the results depend on the processing

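With 2 libraries per group and 3 members past the filter in C2C12, the calls were close to the threshold. The counts below include R3hdml, which passed the filter only through the CTRL DM3 libraries, so that its order was fixed. Cdk5r1 is the other of the 2 members called. R3hdml and Cdk5r1 kept their direction in the 2 comparisons where they were called, under every setting that gave a value. For DM3 against GM in CTRL cells, where 2 members were called, the count was 0 with a pseudocount of 0.01, 0 with no filter, 0 in a fit of only the groups compared, 1 with a filter at 1 FPKM and 1 with the added fold threshold, and 0 to 3 when 1 library was left out. For Cas9M3 against CTRL on DM3, where 2 were called, it was 1 with a pseudocount of 0.01, 1 with a filter at 1 FPKM, 1 with the fold threshold and 0 to 3 when 1 library was left out. Under all other settings these counts stayed within 1.5-fold, and in the other 3 C2C12 comparisons the count was 0 under every setting. R3hdml could not be fitted without either CTRL DM3 library, since it then missed the filter, and the effect on DM3 minus that in GM has no fit of only the groups compared.

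With the replicate number as a block, 3 members were called in CTRL cells (Baiap2l1 at an adjusted p of 0.0351) and 2 on DM3, and the calls over all genes went from 158 to 411 and from 274 to 505. No other call of a member changed with the block. Same-numbered muscle libraries shared only a number (10 correlations of -0.019 to 0.211), and the block there gave 27 calls in the lists of related and fusion genes against 26 without it. Those 26 calls became 15 with the fold threshold and 19 to 29 when 1 library was left out, with the lowest count without day 3 replicate 2.

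The direction turned in 5 cases, none of them called, when 1 library was left out. The GM difference of Baiap2l1 ran from -0.34 without CTRL GM replicate 2 to 1.07 without CTRL GM replicate 1. With Cas9M3 GM replicate 2 or 1 left out, the change in Cas9M3 cells ran from -0.20 to 1.25 for R3hdml and from -0.067 to 0.67 for Cdk5r1, and the GM difference from 0.24 to -1.22 and from 0.087 to -0.65. The causes were not tested. The count of 10 genes with both day 3 libraries above the other 8 held under every setting. Depth limits Il17b, Smim22, Smim6, Grhl3 and Cacna1h in C2C12 most, since they had at most 5 reads per library.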
